A study of Mus musculus with 4 samples.

Results

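The m6A readers are proteins that bind N6-methyladenosine, the most common internal mark of messenger RNA, and through it set how long a marked message lasts and how well it is translated. The genes described here are 8 Ensembl gene IDs listed by name, with no threshold on measured values but with earlier results of these data known: Ythdf1, Ythdf2, Ythdf3, Ythdc1, Igf2bp1, Igf2bp2, Igf2bp3 and Hnrnpa2b1. They are 8 of the 53465 IDs in the table. A count was recorded for 7 of them, and the same 7 were abundant enough to be tested together with 7712 other genes. Over all 7719 tested genes, 17.3% differed between the groups, and 2 of the 7 readers did.

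The measurements are ribosome footprints, the short RNA fragments that ribosomes shield from nuclease. A gene's footprint count rises with the amount of its mRNA and with the number of ribosomes on it, and these cannot be told apart without matched RNA libraries, which are not analysed here. The cells were MLE-12, a mouse lung epithelial line immortalised by SV40 large T antigen that serves as a model of alveolar type 2 cells. The tested cells had 5 µM 1-nitropyrene, a nitrated aromatic compound of diesel exhaust, for 12 h (replicates 2 and 3). The controls were MLE-12 cells without the compound (replicates 1 and 2). The series as a whole asks how 1-nitropyrene, through the m6A eraser ALKBH5, affects translation of Fbxw7 mRNA.

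The 1-nitropyrene libraries held 1243186 and 1357034 counts, and the control libraries 1261372 and 1136145. Levels are given in CPM, counts per 1e6 counts of the library, after TMM scaling, which adjusts library sizes so that most genes are level between libraries. On that scale 1 count was worth 0.761 to 0.860 CPM. The labels do not say whether the 2 libraries of a group are separate cultures. The p-values therefore reflect the spread of these particular libraries, which may be technical. In the main edgeR fit that spread is a trend over genes of similar level. The SE and p of a gene thus do not measure how well its own replicates matched. A change in a bulk sample can come from more or fewer cells with the transcript or from more or less of it per cell, and the counts do not separate these. The alveolar identity of the cells was not checked against marker genes here, since the symbols could not be tied to the IDs.

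The YTH family proteins hold m6A in the aromatic pocket of their YTH domain. YTHDF1, YTHDF2 and YTHDF3 are closely related cytoplasmic proteins: YTHDF2 is known for bringing the CCR4-NOT deadenylase to marked mRNAs and so for their decay, YTHDF1 for promoting their translation, and YTHDF3 for acting with both. How far the roles of the 3 overlap is debated. YTHDC1 is nuclear and acts in splicing and export. The IGF2BP proteins bind RNA through KH domains and stabilise their targets, and HNRNPA2B1 is an abundant nuclear RNA-binding protein that has been linked to m6A in microRNA processing and splicing.

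In cells given 1-nitropyrene the 3 Ythdf genes did not share a direction: Ythdf2 lay higher, and Ythdf3 and Ythdf1 lay lower. Footprints on Ythdf3 fell to 0.821 of the control level and those on Ythdf2 rose 1.23-fold, while Ythdf1 lay lower, at 0.870 of control, without passing the test. The call of Ythdf3 held in 7 of 12 alternative analyses and that of Ythdf2 in 3. The 3 that kept Ythdf2 used the same edgeR test with nearly the same scaling or another filter. Their log2 fold change was 0.30 in each, so they nearly repeat the main fit and add little support. Some of the 7 that kept Ythdf3 were of this kind too, though scaling to total counts and limma-voom also kept it. As a share of the footprints on the 3 Ythdf genes, Ythdf2 was at 29.5% ± 1.93 in 1-nitropyrene cells and 22.2% ± 0.277 in control cells (SD, n = 2 each).

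Ythdf3 (ENSMUSG00000047213, chr3:16183148-16217037 of GRCm38.p6, the assembly behind mm10) had 498 and 524 counts in the 1-nitropyrene libraries, against 682 and 602 in the control libraries. These correspond to 429 and 415 CPM in 1-nitropyrene cells and 519 and 508 CPM in control cells. Both 1-nitropyrene libraries lay below both controls, and the gap between the groups was several times the gap within either. The log2 fold change was -0.28 ± 0.075 (SE), or 0.821 of the control level with a 95% interval of 0.741 to 0.910. It passed the test over all genes (quasi-likelihood test of edgeR, adjusted p = 0.0023 after Benjamini-Hochberg correction). The DESeq2 Wald test gave nearly the same size (log2 fold change -0.27) but an adjusted p of 0.137. The call was also lost without control replicate 1 (adjusted p = 0.062), without 1-nitropyrene replicate 2 (0.057) and without 1-nitropyrene replicate 3 (0.056), all with edgeR.

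Ythdf2 (ENSMUSG00000040025, chr4:132184916-132212256) had 260 and 325 counts in the 1-nitropyrene libraries, against 259 and 232 in the control libraries. After scaling this was 224 and 257 CPM in 1-nitropyrene cells and 197 and 196 CPM in control cells. The controls were nearly equal, and the 1-nitropyrene libraries, which lay further apart, were both above them. The log2 fold change was 0.30 ± 0.11 (SE), 1.23-fold with a 95% interval of 1.06 to 1.43, and the edgeR adjusted p of 0.0466 was just inside the threshold of 0.05. The call was lost in 9 of 12 alternatives, though the sign was positive in all 12. With libraries scaled to total counts the log2 fold change was 0.13 (edgeR adjusted p = 0.443), and the DESeq2 Wald test gave 0.31 with an adjusted p of 0.307. Leaving out any 1 of the 4 libraries also ended it, with edgeR adjusted p of 0.064 without 1-nitropyrene replicate 2, 0.434 without 1-nitropyrene replicate 3, 0.188 without control replicate 1 and 0.188 without control replicate 2. Without 1-nitropyrene replicate 3 the log2 fold change was 0.19.

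Ythdf1 (ENSMUSG00000038848, chr2:180904377-180920936) had 165 and 203 counts in the 1-nitropyrene libraries, against 235 and 201 in the control libraries. Its levels were 142 and 161 CPM in 1-nitropyrene cells and 179 and 170 CPM in control cells. The groups did not overlap, but the lower control and the higher 1-nitropyrene library were close. The log2 fold change was -0.20 ± 0.13 (SE; edgeR adjusted p = 0.297), and its 95% interval of 0.729- to 1.04-fold spans a fall larger than that of Ythdf3 and a slight increase. Without 1-nitropyrene replicate 2 the log2 fold change was -0.10, and without 1-nitropyrene replicate 3 it was -0.29; neither passed. Scaling to total counts gave a log2 fold change of -0.37 that passed the test (edgeR adjusted p = 0.030).

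**Figure D1:**
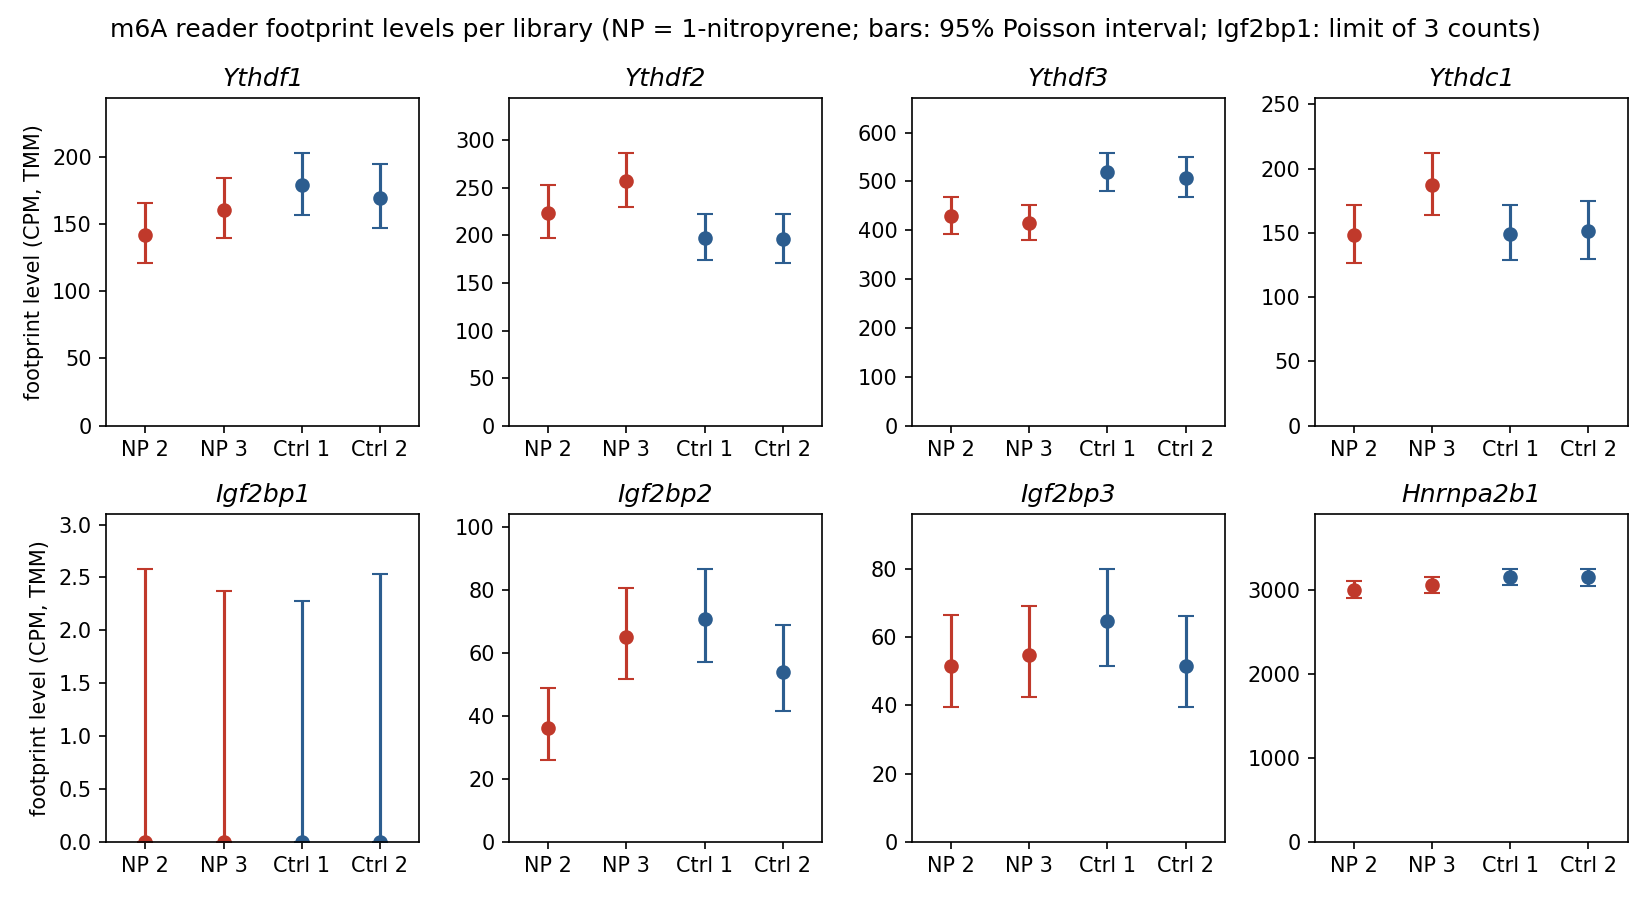
Footprint level (y axis, CPM after TMM scaling, from 0) of each of the 8 m6A readers in the 1-nitropyrene libraries (NP, red) and the control libraries (Ctrl, blue), 1 point per library. Bars are 95% Poisson intervals for counting error, or for Igf2bp1 the limit of 3 counts. Both red points lie below both blue ones for Ythdf3, Ythdf1 and Hnrnpa2b1 and above them for Ythdf2.

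The balance within the Ythdf genes does not depend on how libraries are scaled, since it is a ratio of counts of the same library. Ythdf2 held 28.2% of the 923 Ythdf counts of 1-nitropyrene replicate 2 (95% exact binomial interval 25.3 to 31.2) and 30.9% of the 1052 counts of replicate 3 (28.1 to 33.8). In the controls it held 22.0% of 1176 counts (19.7 to 24.5) and 22.4% of 1035 (19.9 to 25.1). The intervals of the 1-nitropyrene libraries lie above those of the controls without touching; they cover counting error only. The share of Ythdf3 was lower, with 54.0% and 49.8% in 1-nitropyrene libraries and 58.0% and 58.2% in control libraries. Its interval in 1-nitropyrene replicate 2 (50.7 to 57.2) overlapped those of both controls (55.1 to 60.8 and 55.1 to 61.2). That of 1-nitropyrene replicate 3 (46.7 to 52.9) lay below both. The shares of the 3 genes add up to the whole, so a higher share of Ythdf2 and a lower one of Ythdf3 are not separate observations. The share of Ythdf1 was nearly level, at 17.9% and 19.3% in 1-nitropyrene libraries and 20.0% and 19.4% in control libraries. An exact two-sided permutation test of these shares gave p = 0.33 for each gene (n = 2 each), the smallest p that 2 against 2 libraries allow.

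Per library, there were 0.522 and 0.620 Ythdf2 counts for each Ythdf3 count in 1-nitropyrene cells, against 0.380 and 0.385 in control cells. The log2 fold change of Ythdf2 exceeded that of Ythdf3 by 0.58 ± 0.13 (SE combined from the edgeR fit, taking the 2 estimates as independent; 95% interval 0.32 to 0.84). That interval lay above 0 in the fit and in all 12 alternatives. Other scalings and filters shift both genes nearly alike, however, so those alternatives could not test the difference. With the DESeq2 Wald test the difference was 0.58 with a wider 95% interval of 0.15 to 1.00. With 1 library left out it ran from 0.45 without 1-nitropyrene replicate 3 to 0.70 without 1-nitropyrene replicate 2. This pair was the most distant of the 3 possible and was picked after its values were seen, so the interval is a description. Ythdf2 also exceeded Ythdf1, by 0.50 ± 0.17 (95% interval 0.16 to 0.83). Ythdf1 and Ythdf3 differed by 0.083 ± 0.15 (95% interval -0.21 to 0.38), which leaves room for either to have changed more. Because the genes are related and it is not stated how reads matching several genes were counted, footprints from stretches that the 3 share may be missing or misassigned.

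**Figure D2:**
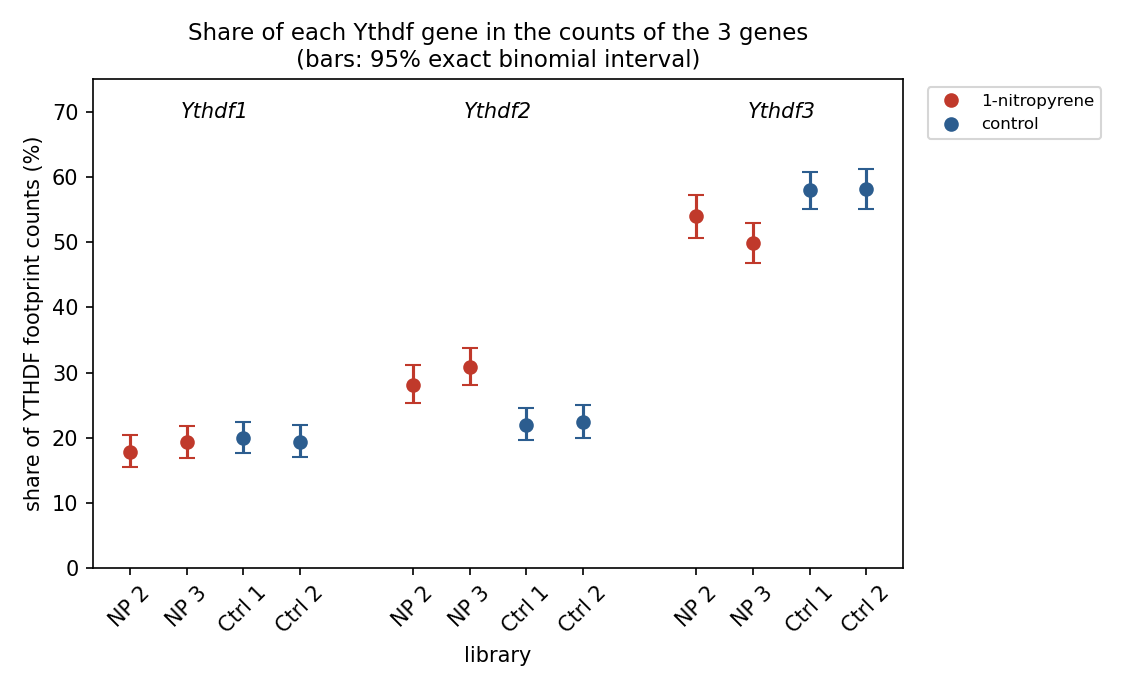
Share of Ythdf1, Ythdf2 and Ythdf3 (y axis, percent) in the summed footprint counts of the 3 genes, per library (x axis; NP, 1-nitropyrene, red; Ctrl, control, blue), with 95% exact binomial intervals for counting error. Ythdf2 sits at 28.2% and 30.9% in 1-nitropyrene libraries and at 22.0% and 22.4% in control libraries.

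After TMM scaling the summed level of the 3 Ythdf genes was 794 and 833 CPM in 1-nitropyrene libraries, mean 814 ± 27.6 CPM, and 894 and 873 CPM in control libraries, mean 884 ± 15 CPM (SD, n = 2 each). The groups did not overlap, as was so for 57.3% of all tested genes, and no test was run on the sum. The 1-nitropyrene mean was 0.921 of the control mean (log2 ratio -0.12). Ythdf3 held 49.8% to 58.2% of the summed counts per library, so the lower sum is not separate from the change of Ythdf3. Scaled to total counts the log2 ratio was -0.28.

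Ythdc1 (ENSMUSG00000035851, chr5:86803980-86836659), the nuclear reader of the family, gave no difference that the replicates could support. It had 172 and 236 counts in 1-nitropyrene libraries and 196 and 179 in control libraries, or 148 and 187 CPM in 1-nitropyrene cells and 149 and 151 CPM in control cells. One 1-nitropyrene library was thus level with the controls and the other above them. The log2 fold change of 0.16 ± 0.13 (SE; edgeR adjusted p = 0.425) had a 95% interval of 0.937- to 1.34-fold, and it was -0.0022 with total counts and -0.017 without 1-nitropyrene replicate 3.

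Among the IGF2BP genes, Igf2bp1 (ENSMUSG00000013415, chr11:95957163-96005944) had a count of 0 in all 4 libraries. At this depth a count of 0 allows up to 3 counts, that is 2.58 and 2.38 CPM in 1-nitropyrene libraries and 2.28 and 2.53 CPM in control libraries. No fold change can be given. IGF2BP1 is known as an oncofetal protein, abundant in embryonic tissue and scarce in most adult tissue. Whether this bears on the count of 0 in MLE-12 cells was not tested.

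Igf2bp2 and Igf2bp3 were both detected at low counts. Igf2bp2 (ENSMUSG00000033581, chr16:22059009-22163299) had 42 and 82 counts in 1-nitropyrene libraries and 93 and 64 in control libraries. The levels were 36.1 and 65.0 CPM in 1-nitropyrene cells and 70.7 and 54.0 CPM in control cells, so the groups overlapped. Its log2 fold change of -0.30 ± 0.22 (SE; edgeR adjusted p = 0.383) was as large as that of Ythdf3 but rested on 0.122 times the counts. It was 0.067 without 1-nitropyrene replicate 2 and -0.79 without 1-nitropyrene replicate 3. The interval of 0.602- to 1.10-fold leaves a sizeable fall or a small increase possible.

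Igf2bp3 (ENSMUSG00000029814, chr6:49085218-49215469) had 60 and 69 counts in 1-nitropyrene libraries and 85 and 61 in control libraries. This was 51.6 and 54.7 CPM in 1-nitropyrene cells and 64.6 and 51.5 CPM in control cells, and the groups overlapped. The log2 fold change was -0.13 ± 0.22 (SE; edgeR adjusted p = 0.748), with an interval of 0.673- to 1.24-fold, and 0.047 without control replicate 1. In the RefSeq table its locus overlaps the protein-coding gene Malsu1, the pseudogene Gm18010 and the long noncoding RNA D030074P21Rik, so some of its few counts may be shared with them. Of the summed IGF2BP counts, Igf2bp2 held 41.2% and 54.3% in 1-nitropyrene libraries and 52.2% and 51.2% in control libraries, which overlapped. The summed level was 104 ± 22.5 CPM in 1-nitropyrene cells and 120.4 ± 21.2 CPM in control cells (SD, n = 2 each), a difference smaller than the spread within either group.

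Hnrnpa2b1 (ENSMUSG00000004980, chr6:51460434-51470048) was the reader with the most counts behind its value and so the most tightly measured. It had 3497 and 3870 counts in 1-nitropyrene libraries and 4154 and 3740 in control libraries. After TMM scaling these were 3009 and 3065 CPM in 1-nitropyrene cells and 3159 and 3155 CPM in control cells. The groups did not overlap, but the gap was small: the log2 fold change was -0.056 ± 0.033 (SE; edgeR adjusted p = 0.239), with a 95% interval of 0.920- to 1.01-fold. A fall beyond 0.920 of control or a rise beyond 1.01-fold therefore lies outside the interval on this scale. Without 1-nitropyrene replicate 2 the log2 fold change was -0.027, and it did not pass.

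The scale decides what is said of Hnrnpa2b1. As a share of all counts it held 0.281% and 0.285% of the 1-nitropyrene libraries, against 0.329% of either control library. Scaled to total counts its log2 fold change was -0.22 (edgeR adjusted p = 1.26e-10), and with TMM scaling and limma-voom the small change of -0.055 also passed (adjusted p = 0.025). Total counts moved the median log2 fold change of all tested genes by -0.16, to -0.17, so that Hnrnpa2b1 differed from the median gene by -0.048 with TMM and by -0.049 with total counts. Which scale gives the change per cell was not tested, as it needs an added standard.

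**Figure D3:**
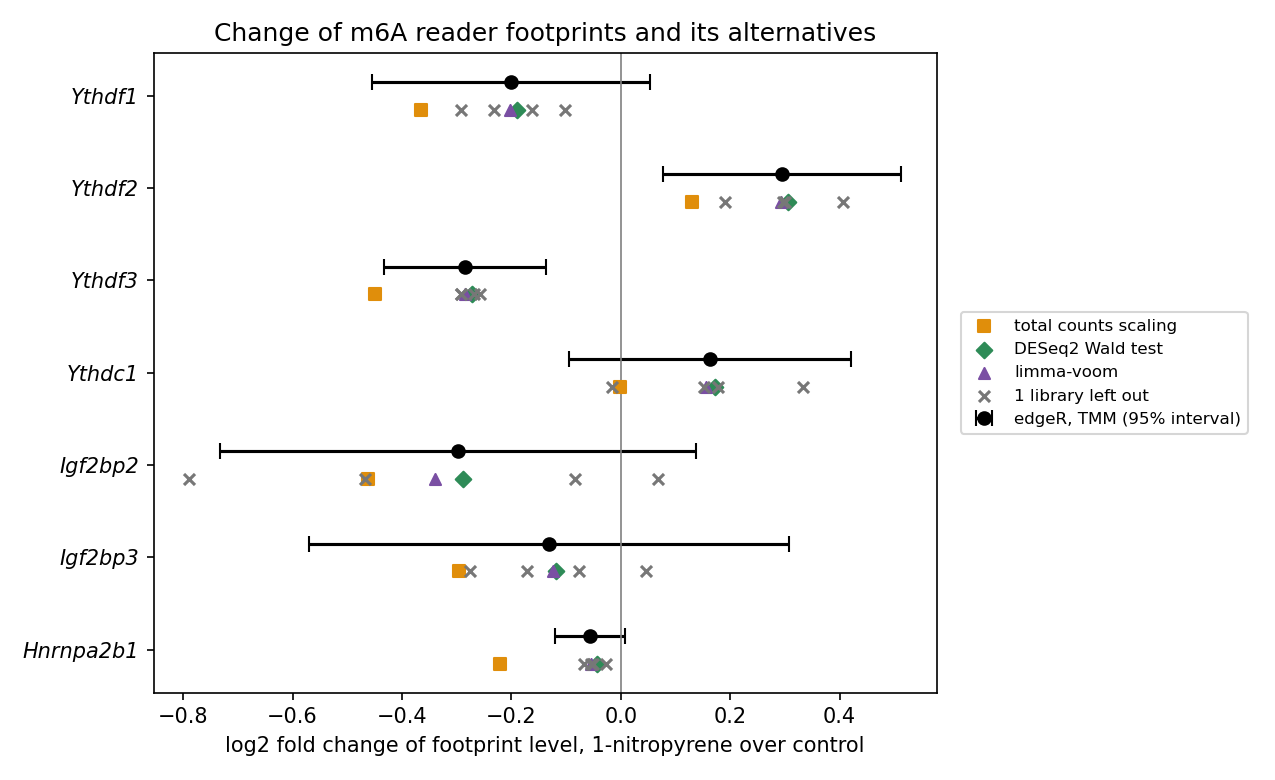
Log2 fold change of footprint level (x axis, 1-nitropyrene over control) of the 7 tested readers. Black points with bars are the edgeR estimates with 95% intervals, and the symbols under them are the values with total counts, the DESeq2 Wald test, limma-voom and 1 library left out. Ythdf3 stays left of 0 and Ythdf2 right of 0 under each of these. Ythdf1 and Hnrnpa2b1, not called in the main fit, also stay left of 0, while Igf2bp2, Igf2bp3 and Ythdc1 cross it.

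Against the whole table, the changes of the readers were ordinary in size. Ythdf3, the more firmly called, had a more negative log2 fold change than all but 29.5% of the tested genes, and 73.6% of the tested genes lay below Ythdf2. The 7 tested readers had a median log2 fold change of -0.13, against -0.0076 over all tested genes. Of the readers, 1 rose (9.68% of all tested genes did), 1 fell (7.58%) and 5 did not pass. For 4 of the 7 no library of one group reached into the range of the other, which held for 57.3% of all tested genes. The calls came from well-covered genes: 5 readers, the Ythdf genes, Ythdc1 and Hnrnpa2b1, belong to the 1933 tested genes with mean counts of 92 or more, of which 36.4% were called, and 2 of these 5 were. The readers' share of calls was thus near that of well-covered genes as a whole. None of the 7 passed the DESeq2 Wald test, which called 11.9% of the genes it gave an adjusted p, and 1 of them, Ythdf3, had an unadjusted DESeq2 p under 0.05. With total counts edgeR called 3 of the 7 lower, Ythdf1, Ythdf3 and Hnrnpa2b1, against 14.4% of all tested genes, and 0 higher.

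**Figure D4:**
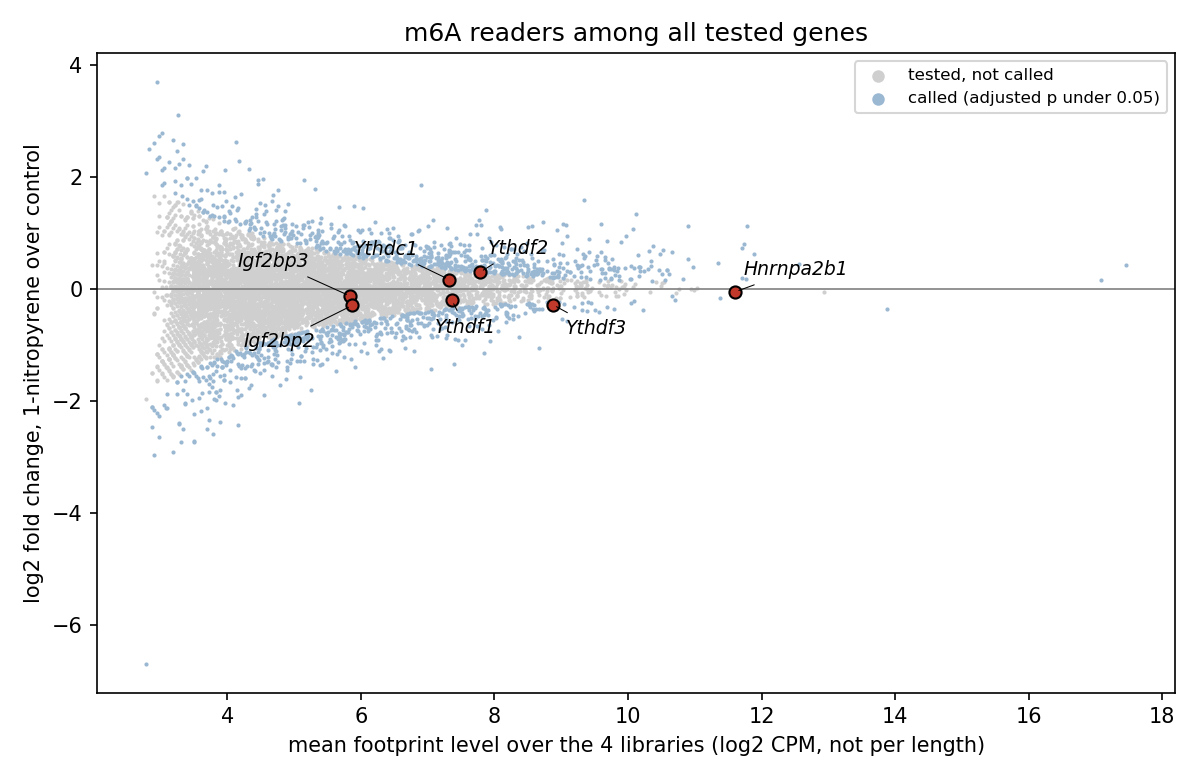
Mean footprint level over the 4 libraries (x axis, log2 CPM, not divided by length) against log2 fold change of 1-nitropyrene over control (y axis) for the 7719 tested genes, called genes in blue and others in grey, with the 7 tested readers as red points. The readers lie close to 0, and Ythdf2 and Ythdf3 at the inner edge of the called genes at their level.

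The ratio between the replicates of a group varied among the readers, though for most pairs the interval for counting error included 1. Between the control libraries the ratio of replicate 2 to replicate 1 was 0.994 for Ythdf2, 0.979 for Ythdf3, 0.949 for Ythdf1, 1.01 for Ythdc1 and 0.999 for Hnrnpa2b1. It was further from 1 for the 2 genes with the fewest counts, at 0.763 for Igf2bp2 (95% exact binomial interval 0.546 to 1.06) and 0.796 for Igf2bp3 (0.563 to 1.12). Between the 1-nitropyrene libraries the ratio of replicate 3 to replicate 2 ran from 0.969 for Ythdf3 to 1.80 for Igf2bp2. The 95% exact binomial interval, not adjusted for the number of pairs, excluded 1 in 2 of the 14 pairs examined, both from 1-nitropyrene cells. These were Igf2bp2, at a ratio of 1.80 (95% exact binomial interval 1.22 to 2.67), and Ythdc1, at 1.26 (1.03 to 1.55). For these genes the spread between the 1-nitropyrene libraries was larger than the difference between the group means.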

How the data were processed

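Per the file headers and labels, the authors deposited whole-number footprint counts per Ensembl gene ID, unnormalized, in 1 column per library, with 0 other sample columns. Per the submitters' processing notes reads were handled with featureCounts, HISAT2, Bowtie, cutadapt and DESeq2 on mm10; settings, strand rule and treatment of reads matching several genes: not given in the sources used here. Per the labels' protocols, cells were washed with cycloheximide and ribosomal RNA was depleted.

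All genes were fitted together with edgeR 4.0.16 (R 4.3.3): filterByExpr (minimum count 10, minimum total 15), TMM, quasi-likelihood F test with no covariates, Benjamini-Hochberg adjustment over 7719 genes, called under 0.05. The prior degrees of freedom were infinite, so each gene took its spread from the trend. Standard errors were derived from each F statistic, and 95% intervals from the normal distribution. Alternatives used DESeq2 1.42.0 and limma 3.58.1, other scalings and filters, and each library left out. The fit was also run on counts simulated from its own trend, with added changes larger than those of the readers. That run could check neither the trend nor changes as small as the readers'.

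The 8 readers are named as the list of members gives them and all are described. Loci are from RefSeq, GRCm38.p6. That table gives an Ensembl ID for 0 of its 49997 genes, so the other m6A genes and marker lists are not analysed here, nor are levels per codon. Members and lists were chosen with earlier results of these data known.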

Additional observations from a re-analysis of the deposited data

How the results depend on the processing

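Ythdf2 kept its sign in all 12 alternatives and its call in 3, and Ythdf3 kept its sign in 12 and its call in 7. The 3 that kept the Ythdf2 call nearly repeat the main fit, as do some of the 7 for Ythdf3. The Ythdf2 log2 fold change was 0.13 with total counts, 0.31 with no filter, 0.31 with the DESeq2 Wald test, 0.30 with DESeq2 on the genes edgeR tested, 0.29 with limma-voom, and 0.19 to 0.41 without 1 library, none of them called. That of Ythdf3 was -0.27 with the DESeq2 Wald test and -0.28 on the genes edgeR tested, and -0.29 to -0.26 without 1 library. Total counts made Ythdf1 (-0.37) and Hnrnpa2b1 (-0.22) pass, and limma-voom Hnrnpa2b1 (-0.055). The sign turned for Ythdc1 with total counts (-0.0022) and without 1-nitropyrene replicate 3 (-0.017), for Igf2bp2 without 1-nitropyrene replicate 2 (0.067) and for Igf2bp3 without control replicate 1 (0.047). None of these passed; without 1 library the 3 ran from -0.017 to 0.33, -0.79 to 0.067 and -0.28 to 0.047. The Igf2bp2 share of IGF2BP counts, 3.98 points lower in 1-nitropyrene cells, was 2.58 points higher without 1-nitropyrene replicate 2, and -10.5 at the other end; that of Igf2bp3 ran from -2.58 to 10.5. The log2 ratio of summed Ythdf levels was -0.28 with total counts. Genes called numbered 1332 (747 higher, 585 lower), 318 (239, 79) with the DESeq2 Wald test, 345 (243, 102) with DESeq2 on the genes edgeR tested, 406 higher and 1110 lower with total counts, and 572 to 834 (382 to 480, 190 to 354) without 1 library. Higher calls were thus 56.1% of calls with TMM and 26.8% with total counts. Where 1 library was left out, the lone sample was assumed to vary like the other group. The cause of these differences was not tested. The Ythdf2 minus Ythdf3 difference and the family sums without 1 library were added after the data were seen. No paired analysis was possible because number 2 is the only one that occurs in both groups. The level per codon was not run. Depth limits Igf2bp2 and Igf2bp3, at mean counts of 70.2 and 68.8.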
